A study of Mus musculus with 54 samples.

Results

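Interferon-stimulated genes are the antiviral and signalling genes whose transcripts accumulate when a cell senses interferon. A list of 38 such genes of the mouse was looked up by symbol in the deposited expression table, and all 38 were found among its 13611 genes. RNA had been sequenced in 54 libraries, 40 from tissues and 14 from a cell line. The mice were C57B6, an inbred laboratory strain, and gave 2 lymphoid organs, spleen and thymus, and 2 stretches of gut, the small and the large intestine. NIH3T3 is a long-used mouse cell line of embryonic fibroblast origin, kept in culture. Apart from the 0 h libraries, which the labels give as untreated, all came from mice or cells exposed to gamma rays at 10 Gy, a high dose that breaks DNA. A tissue was sampled with 1 library per time point, hourly for the first 8 h and then at 24 h, and the cell line hourly for 12 h and then at 24 h. Polyadenylated RNA was made into libraries that do not keep the strand. Since only the 0 h libraries were untreated, an effect of radiation and an effect of time or handling cannot be told apart.

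Type I interferons (the alpha and beta interferons) bind the receptor chains Ifnar1 and Ifnar2 and activate the kinases Jak1 and Tyk2. These lead to the assembly of ISGF3, a factor that contains Stat2 and Irf9 and binds the interferon-stimulated response element (ISRE) in promoters. Irf7, itself a target, then amplifies the production of interferon. Interferon can be induced when sensors detect viral nucleic acid, or a cell's own DNA or RNA out of place, and the products of the target genes block viral entry, translation and replication or attract leukocytes. The spleen and thymus are lymphoid organs, which hold many lymphocytes that are sensitive to radiation, together with macrophages and dendritic cells.

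Promoter sequence is shown first for 3 of the genes the results turn on, to show the element through which ISGF3 acts. RefSeq promoters (build GRCm38.p6, from 250 bases before to 50 bases after each gene's start) were held for 28 of the 38 genes. The ISRE core, searched as GAAANNGAAA on both strands, was found in 15 of these 28, or 53.6%, against 1079 of 27025 genes, or 3.99%. The core of the interferon-gamma-activated site, searched as TTCNNNGAA, was found in 5 of 28, or 17.9%, against 9.55% of all genes. The 15 were Stat2, Ddx58, Ifih1, Oas1a, Oas3, Ifit1, Ifit3, Rsad2, Bst2, Eif2ak2, Isg15, Trim30a, Gbp2, Gbp3 and Cxcl10. The stretches below run 5′ to 3′ toward the gene's start, capitals mark ISRE core matches, and positions count back from the start. Isg15 (chr4:156200819-156201018, minus strand) held 3 overlapping matches, the first at -78 and the last at -66. Ifit1 (chr19:34640689-34640888, plus strand) held 2 matches, at -104 and -85, on the opposite strand, so that the capitals show the reverse complement. Cxcl10 (chr5:92348940-92349139, minus strand) held 1 match, at -213. No match stood in the Irf7 window, which says only that these letters were not in it.
Isg15: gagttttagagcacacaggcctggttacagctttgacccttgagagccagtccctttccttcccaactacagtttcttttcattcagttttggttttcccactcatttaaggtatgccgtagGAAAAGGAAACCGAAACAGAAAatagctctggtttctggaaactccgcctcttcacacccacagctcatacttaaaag
Ifit1: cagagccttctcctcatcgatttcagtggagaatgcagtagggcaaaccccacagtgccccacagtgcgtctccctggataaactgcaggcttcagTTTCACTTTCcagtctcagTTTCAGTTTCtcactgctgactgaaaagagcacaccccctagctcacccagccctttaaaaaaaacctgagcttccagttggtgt
Cxcl10: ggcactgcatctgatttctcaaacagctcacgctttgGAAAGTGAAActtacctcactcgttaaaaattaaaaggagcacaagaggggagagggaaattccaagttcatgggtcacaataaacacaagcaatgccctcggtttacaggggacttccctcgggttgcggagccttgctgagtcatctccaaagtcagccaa

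The genes lie on 14 chromosomes (GENCODE M21, GRCm38), and 12 of them lie within 50 kb of another member. Isg15 spans chr4:156199424-156200818, Irf7 chr7:141262706-141266481, Bst2 chr8:71534255-71537456 and Cxcl10 chr5:92346638-92348889, all on the minus strand, and Ifit1 spans chr19:34640871-34650009 on the plus strand. Exons of 13 members overlap an exon of another annotated gene, among them Irf7 with Phrf1, Irf9 with Rnf31, Cxcl10 with Art3, and Parp9 with Dtx3l. Without strand, fragments from such partners cannot be told apart. Levels of Ifit1 to Ifit3 and Oas1a are uncertain where near-identical copies share fragments.

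The libraries mostly carried the markers of their labels. Summed over 8 genes, markers of small intestinal epithelium ran from 72638 to 94975 FPKM in small intestine from 1 to 8 h, and T-cell markers stood at 2412 FPKM in untreated thymus. FPKM counts fragments relative to transcript length and to all mapped fragments of a library. Markers of B cells stood at 2416 FPKM in untreated spleen and those of fibroblasts between 1218 and 1649 FPKM in NIH3T3 from 0 to 8 h. A few libraries also held transcripts of another organ. The large intestine library at 2 h had 31738 FPKM of small intestinal epithelium markers, the spleen library at 6 h had 66303 FPKM of pancreas markers, and the thymus library at 24 h had 8794 FPKM of small intestinal epithelium markers against 6.65 to 31.2 FPKM in the other thymus libraries. The counts of calls that these libraries change and the onsets at 2 h in large intestine are also given without the library or with the other organ's share removed. So are the median change of the 38 members in thymus at 24 h and the 2 h levels of Oasl2, Usp18 and Trim25 in large intestine. Other values are as deposited.

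Before irradiation the list was well expressed in every tissue and scarcely in the fibroblasts. The median level of the 38 genes at 0 h was 30.8 FPKM in small intestine, 20.3 in thymus, 19.99 in spleen, 9.35 in large intestine and 1.02 in NIH3T3. The highest member was Lgals3bp, a secreted glycoprotein, in small intestine (268 FPKM) and large intestine (120.1 FPKM). It was Bst2, the membrane protein tetherin that holds budding virus at the cell surface, in spleen (146 FPKM), and Ifi27, a mitochondrial protein, in thymus (122 FPKM) and NIH3T3 (47.6 FPKM). In NIH3T3, 19 members averaged below 1 FPKM, among them Irf7, Mx1, Rsad2, all 5 members of the OAS family and Cxcl10, and 19 could be tested. Mx2 averaged below 1 FPKM in large intestine, so 37 were tested there and all 38 in the other tissues.

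At 24 h the median of the 38 genes was 102.7 FPKM in thymus, 64.3 in spleen, 44.9 in small intestine, 17.5 in large intestine and 1.59 in NIH3T3. The order of the tissues at 24 h, thymus, spleen, small intestine and large intestine, therefore differed from that at 0 h, where small intestine was first. Changes below are on the log2(FPKM + 1) scale, which understates the change of low genes. The median change of the tested members from 0 h to 24 h was 2.56 in thymus and 1.97 in spleen, against 0.15 and 0.09 over all genes tested there. It was 0.62 in small intestine, 0.67 in large intestine and 0.40 in NIH3T3. Single 0 h and 24 h libraries stand behind these values, so they have no replicate check, and the tests assume that each varies like the libraries within a time window.

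**Figure D1:**
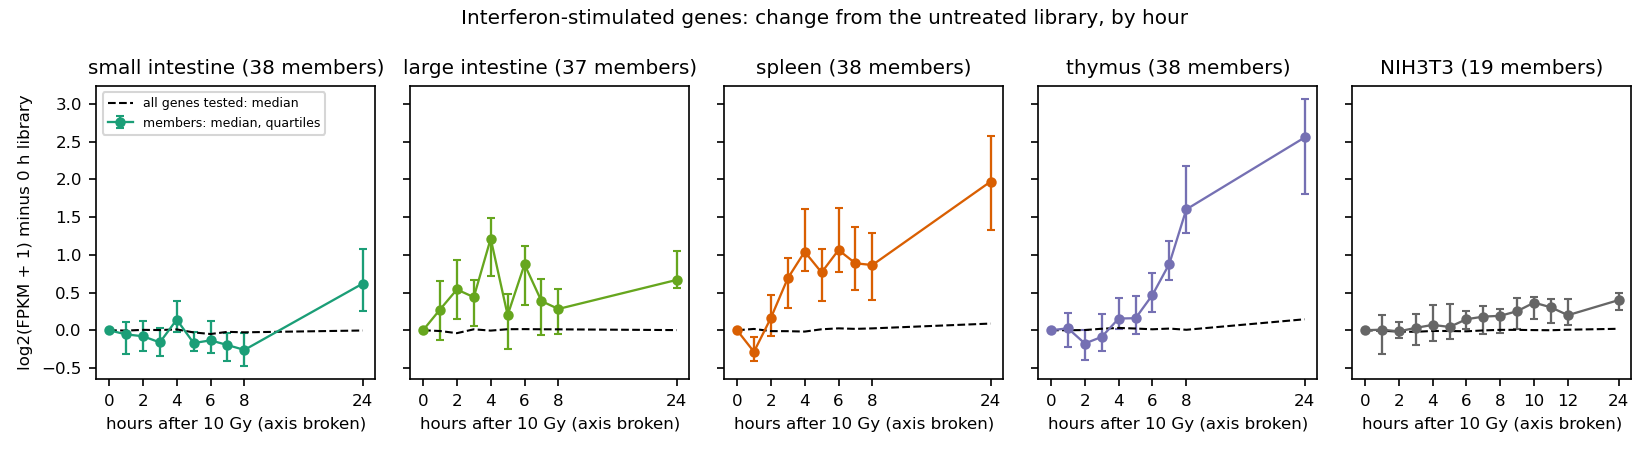
Median change of the interferon-stimulated genes from the untreated library (y axis, log2(FPKM + 1) difference) against hours after 10 Gy (x axis, broken before 24 h), 1 panel per system. Points are medians over the members tested, bars the quartiles over members, and the dashed line is the median of all genes tested; spleen reaches 1.04 at 4 h, thymus 1.60 at 8 h and 2.56 at 24 h.

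The time course differed in shape between spleen and thymus. In spleen the members' median change was -0.29 at 1 h, 0.16 at 2 h, 0.69 at 3 h and 1.04 at 4 h, stayed between 0.77 and 1.06 from 5 to 8 h, and was 1.97 at 24 h. In thymus it stayed between -0.18 and 0.16 from 1 to 5 h, and was 0.47 at 6 h, 0.88 at 7 h, 1.60 at 8 h and 2.56 at 24 h. Small intestine stayed between -0.26 and 0.14 from 1 to 8 h. Large intestine had no steady course: its median was 1.22 at 4 h, 0.20 at 5 h, 0.87 at 6 h and 0.28 at 8 h. In NIH3T3 the median never passed 0.40.

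An onset hour was set for each member as the first irradiated hour at which it stood at least 1 log2 unit above 0 h and did so again at the next hour sampled. The 24 h library has no later one, so a member that reached that level there, with no such earlier hour, counts as an onset at 24 h alone. In spleen 20 of 38 members had their onset by 8 h, against 11.8% of all genes tested, and 13 at 24 h alone, against 7.76%. Cxcl10 came at 1 h, Ifit1, Mx1 and Mx2 at 2 h, Irf7, Ifit3, Ifi44, Isg15 and Usp18 at 3 h, and Oasl2, Oas1a, Oas2 and Parp12 at 4 h. Lgals3bp followed at 5 h, Zbp1, Oasl1, Oas3, Bst2 and Rtp4 at 6 h and Rsad2 at 7 h. In thymus 34 of 38 had their onset by 8 h, against 16.2% of all genes, and 2, Bst2 and Lgals3bp, at 24 h alone, against 11.3%. Of those 34, Mx1 and Cxcl10 came at 3 h, Gbp2 at 6 h, 12 at 7 h and 19 at 8 h. The median onset among members with one was 6 h in spleen and 8 h in thymus.

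The intestines and NIH3T3 had fewer such members. In small intestine 1 of 38 had its onset by 8 h (Cxcl10, at 1 h), against 2.14% of all genes, and 12 at 24 h alone, against 0.676%. Those 12 were Oasl2, Oas1a, Oas2, Ifit1, Ifit3, Mx2, Bst2, Rtp4, Isg15, Usp18, Trim30a and Xaf1. In large intestine 10 of 37 had their onset by 8 h, against 4.52%, and 4 at 24 h alone (Stat2, Ifit3, Rtp4 and Lgals3bp), against 0.472%. The 10 were Cxcl10 at 1 h, Oasl2 and Usp18 at 2 h, Irf7, Oas2 and Trim25 at 3 h, Mx1, Isg15 and Parp12 at 6 h and Ifi44 at 8 h. The 2 h large intestine library stood at a median of 37.0% of the small intestine levels of that hour over the 8 epithelial markers. With that share of the small intestine values taken away, Oasl2 stood at 9.97 FPKM in place of 32.5 FPKM and Usp18 at 0.0851 FPKM in place of 7.11 FPKM at 2 h, and the onset of both moved to 3 h. In NIH3T3 none of 19 had an onset by 12 h, against 1.34%, or at 24 h alone, against 1.03%. With a 1.5-fold rise as the criterion, the large intestine count by 8 h became 20 and the small intestine count at 24 h alone became 20.

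**Figure D2:**
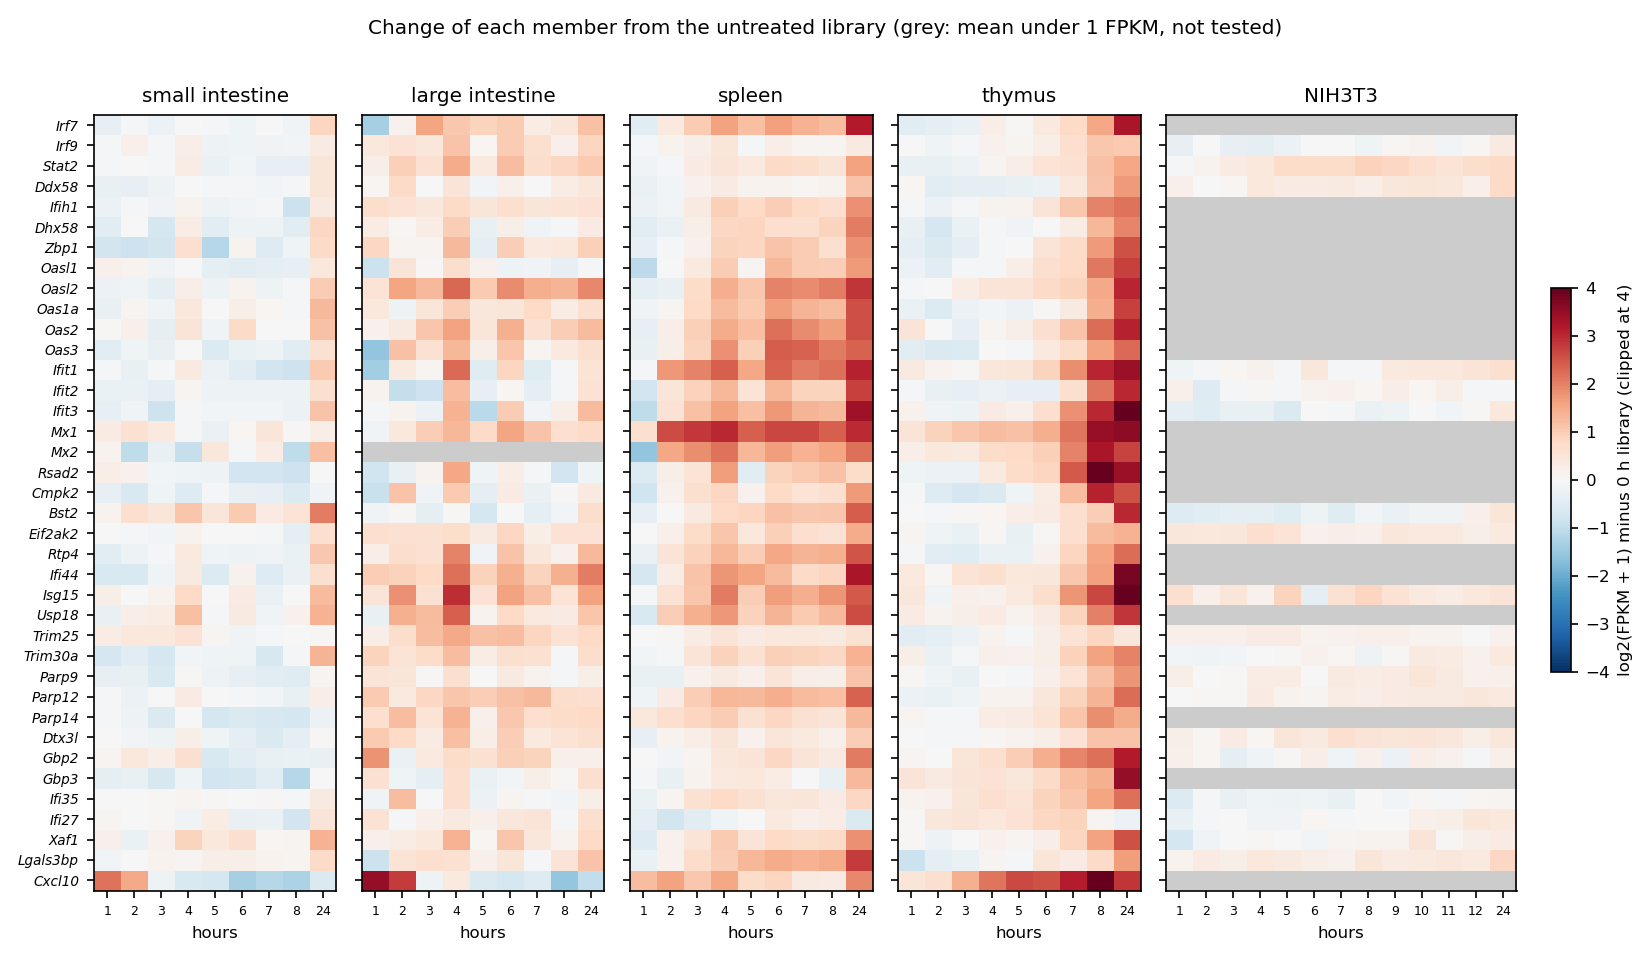
Change of each of the 38 genes (rows) from the untreated library at each hour (columns), 1 panel per system, as log2(FPKM + 1) difference with red above and blue below 0 h, clipped at 4. Grey marks genes with a mean below 1 FPKM in that system; the red block spans hours 3 to 24 in spleen and hours 7 to 24 in thymus.

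In thymus, 36 of 38 members were called higher at 24 h than at 0 h (limma, adjusted p below 0.05) and none lower, against 26.4% of all genes called higher. The largest changes were those of Ifit3 4.64 ± 0.87 (SE, adjusted p = 0.00015), Isg15 4.02 ± 0.87 (SE, adjusted p = 0.00066), Ifi44 3.81 ± 0.58 (SE, adjusted p = 1.2e-05), Mx1 3.59 ± 0.70 (SE, adjusted p = 0.00024), Gbp3 3.50 ± 0.43 (SE, adjusted p = 7.7e-07) and Rsad2 3.46 ± 0.99 (SE, adjusted p = 0.0065). The smallest among the called members were those of Irf9 (1.06 ± 0.39), Dtx3l (1.13 ± 0.38) and Eif2ak2 (1.39 ± 0.38). Trim25 and Ifi27 were not called. Mx2 lost its call in 6 of the 8 fits that left out 1 irradiated thymus library, with an adjusted p of up to 0.0523, and Irf9 lost it with quantile normalization. The 24 h library also held small intestinal transcripts, at a median of 9.73% of the levels in small intestine at 24 h over 8 epithelial markers. With that share of each member's small intestinal level taken away, the median change was 2.46 instead of 2.56, and 35 members remained at least 2-fold above 0 h.

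In spleen, 28 of 38 members were called higher at 24 h and none lower, against 13.2% of all genes called higher. The largest changes were those of Ifit3 3.39 ± 0.87 (SE, adjusted p = 0.0084), Ifi44 3.27 ± 0.58 (SE, adjusted p = 0.00037), Irf7 3.18 ± 0.53 (SE, adjusted p = 0.00020), Ifit1 3.07 ± 0.99 (SE, adjusted p = 0.032), Mx1 2.99 ± 0.70 (SE, adjusted p = 0.0047) and Oasl2 2.85 ± 0.46 (SE, adjusted p = 0.00017). The smallest among the called were those of Parp9 (1.13 ± 0.33), Ddx58 (1.15 ± 0.39) and Gbp3 (1.31 ± 0.43). Irf9, Zbp1, Mx2, Rsad2, Cmpk2, Trim25, Parp14, Dtx3l, Ifi35 and Ifi27 were not called. Isg15 was called at 2.44 ± 0.87 (SE, adjusted p = 0.048), but its adjusted p rose above 0.05 in 6 of the 8 fits that left out 1 irradiated spleen library, up to 0.0552. Cxcl10, at 1.91 ± 0.63 (SE, adjusted p = 0.035), kept its call in those fits and lost it with 0 to 2 h as the reference and with a block for the hour. Ddx58 and Gbp3 lost theirs with a pseudocount of 0.1.

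**Figure D3:**
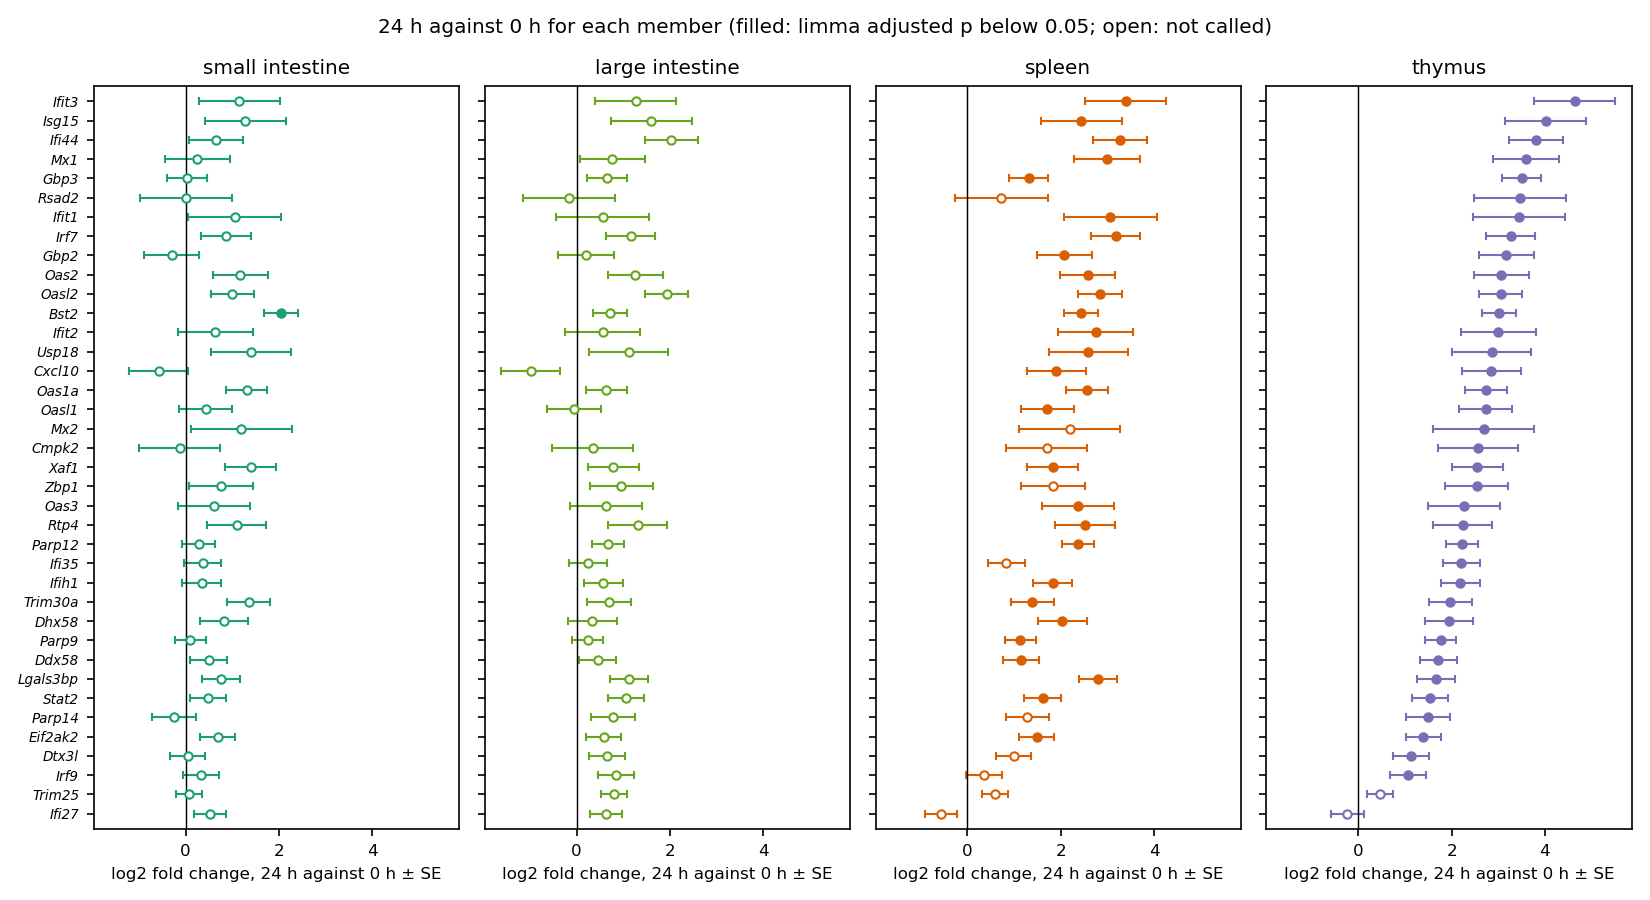
Change from 0 h to 24 h for each member (y axis) in the 4 tissues, as log2 fold change of FPKM + 1 with its standard error (x axis). Filled points have a limma adjusted p below 0.05 and open points do not; 36 are filled in thymus, 28 in spleen, 1 in small intestine and 0 in large intestine.

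In small intestine, 1 of 38 members was called higher at 24 h, against 0.105% of all genes. This was Bst2, at 17.5 FPKM at 0 h, 19.4, 28.5, 24.8, 38.5, 24.8, 37.2, 22.3 and 26.0 FPKM from 1 to 8 h and 75.4 FPKM at 24 h. The 24 h value was above all 9 earlier ones, and the call was lost when small intestine was fitted on its own. Of the other members, Irf7 stood at 0.87 ± 0.53 (SE, adjusted p = 0.84), Isg15 at 1.28 ± 0.87 (SE, adjusted p = 0.88) and Ifit1 at 1.05 ± 0.99 (SE, adjusted p = 0.97). Although only 1 was called, 33 of 38 members had a positive change, where the median change over all genes tested was -0.0033. The 24 h library was the highest of all 10 for 29 of 38, against 13.3% of all genes. The first of these counts rests on 1 library at 0 h and 1 at 24 h, and the second on the same 24 h library. Members measured in 1 library are not replicates of each other, so neither count adds to the test. Within hours 1 to 8, the 4 h library alone was the highest for 28 of 38 members.

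In large intestine, none of 37 members was called higher at 24 h by limma with Benjamini-Hochberg adjustment, against 0.186% of all genes, while 8 had an unadjusted p below 0.05, all of them higher. Irf7 stood at 1.16 ± 0.53 (SE, adjusted p = 0.61), Isg15 at 1.60 ± 0.87 (SE, adjusted p = 0.73), Ifit1 at 0.56 ± 0.99 (SE, adjusted p = 0.98) and Bst2 at 0.72 ± 0.37 (SE, adjusted p = 0.70). The change was positive in 34 of 37, where the median change over all genes tested was 0.0021, again between single libraries. In 3 members, Bst2, Ifi27 and Lgals3bp, the 24 h library was the highest of the 10, against 8.72% of all genes, so that this count of 3 of 37 is near the background. A p above the threshold does not show that these genes were unchanged there: between 1 and 8 h Isg15 ranged from 20.6 to 115 FPKM in that organ.

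In NIH3T3, 3 of 19 members were called higher at 24 h, against 5.64% of all genes: Lgals3bp 0.83 ± 0.17 (SE, adjusted p = 0.0097), Ddx58 0.78 ± 0.22 (SE, adjusted p = 0.035) and Stat2 0.76 ± 0.20 (SE, adjusted p = 0.030). Ddx58 encodes RIG-I, a sensor of viral RNA. Stat2 stood at 6.83, 6.37, 7.59, 8.88, 9.59 and 12.1 FPKM from 0 to 5 h, between 10.5 and 13.7 FPKM from 6 to 12 h and at 12.2 FPKM at 24 h. All 1 h to 4 h values were below every later one. Stat2 was also the 1 member called at 6 to 8 h against 1 to 5 h, 0.48 ± 0.11 (SE, adjusted p = 0.035), against 0.857% of all genes. That call was lost in fits that left out any 1 of 6 libraries, with an adjusted p of up to 0.171.

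Between 9 and 12 h, 5 of 19 members were called higher in NIH3T3 than at 1 to 5 h, against 7.04% of all genes. They were Ifit1 0.45 ± 0.13 (SE, adjusted p = 0.031), Stat2 0.38 ± 0.10 (SE, adjusted p = 0.021), Ifit3 0.36 ± 0.11 (SE, adjusted p = 0.041), Bst2 0.35 ± 0.10 (SE, adjusted p = 0.029) and Ifi27 0.35 ± 0.09 (SE, adjusted p = 0.020). These changes were all below 0.5 log2 units. Bst2 stood at 21.4 ± 1.11 FPKM (SD, n = 5) from 1 to 5 h and at 27.7 ± 4.05 FPKM (SD, n = 4) from 9 to 12 h. The count fell to 1 without the 12 h library. At 1 to 8 h against 0 h none of 19 was called by limma, against 2.76% of all genes called higher, and 4 had an unadjusted p below 0.05.

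Within the first 8 h, thymus had the most calls. Comparing 6 to 8 h with 1 to 5 h, where 3 libraries stand against 5, 34 of 38 members were called higher in thymus and none lower, against 18.6% of all genes. In 30 of 38 members all 3 later libraries stood above all 5 earlier ones, against 19% of all genes. The largest changes were those of Rsad2 2.43 ± 0.51 (SE, adjusted p = 0.00077), Cmpk2 1.93 ± 0.45 (SE, adjusted p = 0.0018), Cxcl10 1.83 ± 0.33 (SE, adjusted p = 0.00015), Ifit3 1.77 ± 0.45 (SE, adjusted p = 0.0039), Ifit1 1.63 ± 0.51 (SE, adjusted p = 0.017) and Mx2 1.57 ± 0.56 (SE, adjusted p = 0.034). The smallest among the called were those of Bst2 (0.61 ± 0.19), Gbp3 (0.64 ± 0.22) and Dtx3l (0.65 ± 0.20). Ifit2, Ifi44, Usp18 and Ifi27 were not called. The 8 h library was the highest of the 8 early ones for 37 of 38 members, against 26% of all genes, and without it 12 members were called. Of the 9 named here, Ifit3, Ifit1, Mx2, Bst2, Gbp3 and Dtx3l then missed the threshold, with adjusted p from 0.0687 for Ifit3 to 0.272 for Mx2. The call of Mx2 was lost without any 1 of 5 libraries (1, 2, 3, 7 or 8 h) and with a block for the hour, and that of Gbp3 without any 1 of 3 (2, 7 or 8 h). Without the 6 h library 36 were called.

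In spleen the same comparison called 9 of 38 members higher and none lower, against 15.4% of all genes. In 8 of 38 all later libraries stood above all earlier ones, against 14.1%. Both counts are only somewhat above the background. All 5 OAS-family genes were among the 9: Oas3 1.56 ± 0.40 (SE, adjusted p = 0.0060), Oasl2 1.46 ± 0.24 (SE, adjusted p = 0.00013), Oas2 1.20 ± 0.30 (SE, adjusted p = 0.0055), Oasl1 1.01 ± 0.30 (SE, adjusted p = 0.014) and Oas1a 0.82 ± 0.23 (SE, adjusted p = 0.011). The others were Lgals3bp (0.86 ± 0.21), Bst2 (0.78 ± 0.19), Ifi27 (0.62 ± 0.18) and Parp12 (0.55 ± 0.18). Without the 6 h library, which carried pancreas transcripts, 5 were called, and Oasl1, Oas1a, Ifi27 and Parp12 missed the threshold with adjusted p from 0.0527 for Ifi27 to 0.109 for Parp12. Leaving out the 1 h library instead took the calls of Oasl1 (adjusted p = 0.0714), Oas1a and Parp12 (adjusted p = 0.201).

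The earlier step of the spleen was seen between 1 to 2 h and 3 to 5 h, a comparison added after the data were seen. It called 7 of 38 members higher, against 3.04% of all genes: Ifi44 1.67 ± 0.37 (SE, adjusted p = 0.0086), Oasl2 1.43 ± 0.30 (SE, adjusted p = 0.0059), Irf7 1.29 ± 0.34 (SE, adjusted p = 0.024), Parp12 1.12 ± 0.22 (SE, adjusted p = 0.0043), Oas1a 1.06 ± 0.29 (SE, adjusted p = 0.028), Lgals3bp 1.05 ± 0.26 (SE, adjusted p = 0.018) and Bst2 0.84 ± 0.24 (SE, adjusted p = 0.035). None was called without the 1 h library, which was the lowest of the 8 early spleen libraries for 33 of 38 members; the adjusted p of the 7 then ran from 0.0881 for Oasl2 to 0.319 for Irf7. In 27 of 38 members, all 6 libraries from 3 to 8 h stood above all 3 from 0 to 2 h, against 7.55% of all genes. In thymus the same separation was found in 7 of 38 members, against 16.2% of all genes, which is near the background. There 1 member was called at 3 to 5 h against 1 to 2 h, Cxcl10 at 1.499 ± 0.41 (SE, adjusted p = 0.020), against 7.36% of all genes. That call was lost without the 1 h, 4 h or 5 h library, with an adjusted p of up to 0.318.

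Against the single untreated library, the mean of 1 to 8 h was called higher for 2 of 38 members in spleen, against 5% of all genes, Mx1 at 2.41 ± 0.53 (SE, adjusted p = 0.0051) and Parp12 at 0.96 ± 0.26 (SE, adjusted p = 0.022). The count of 2 of 38 is near that background. Without the 1 h library 7 were called. In thymus it was called for 1 of 38, Cxcl10 at 2.16 ± 0.47 (SE, adjusted p = 0.0037), against 8.24% of all genes, so that this count is below the background. In large intestine it was called for 2 of 37, Oasl2 at 1.44 ± 0.35 (SE, adjusted p = 0.037) and Trim25 at 0.94 ± 0.21 (SE, adjusted p = 0.021), against 1.24%. Oasl2 stood at 10.2 FPKM at 0 h and at 15.6, 32.5, 26.5, 54.1, 22.4, 40.8, 29.5 and 28.2 FPKM from 1 to 8 h, all above it, and its call was lost without the 6 h library (adjusted p = 0.0555). In small intestine limma called none, against 0.298%, and 1 member had an unadjusted p below 0.05.

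Lymphoid organs were compared with intestines through the difference itself: the mean change of spleen and thymus minus the mean change of both intestines was tested. At 24 h against 0 h, 19 of 37 members were called more strongly increased in spleen and thymus, against 16.1% of all genes, and 1, Ifi27 at -0.99 ± 0.34 (SE, adjusted p = 0.037), was called lower, against 11.2%. The largest differences were those of Cxcl10 3.16 ± 0.63 (SE, adjusted p = 0.00090), Ifit3 2.80 ± 0.87 (SE, adjusted p = 0.020), Mx1 2.78 ± 0.70 (SE, adjusted p = 0.0056), Gbp2 2.67 ± 0.59 (SE, adjusted p = 0.0022), Ifit2 2.28 ± 0.81 (SE, adjusted p = 0.039) and Irf7 2.21 ± 0.53 (SE, adjusted p = 0.0037). For Bst2, the gene called in small intestine, the difference was 1.34 ± 0.37 (SE, adjusted p = 0.0096). At 6 to 8 h against 1 to 5 h, 27 of 37 were called higher and none lower, against 16.6%, led by Cxcl10 2.45 ± 0.33 (SE, adjusted p = 1.7e-05), Rsad2 2.12 ± 0.51 (SE, adjusted p = 0.0032) and Ifit1 1.501 ± 0.51 (SE, adjusted p = 0.030). Without the 8 h thymus library 19 were called, and Ifit1 missed the threshold (adjusted p = 0.0733). On their own, thymus had 34 of 38 members called higher and spleen 9 of 38, against 18.6% and 15.4% of all genes. A call on the mean of both organs therefore does not show a rise in each. Cxcl10 was not among the 9 in spleen, and its mean there was lower at 6 to 8 h than at 1 to 5 h. At 1 to 8 h against 0 h none was called by limma, against 1.92%, and 2 had an unadjusted p below 0.05.

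Spleen and thymus were also set against each other, after the data were seen. In the change from 1 to 5 h to 6 to 8 h, 2 of 38 members were called lower in spleen than in thymus, Cxcl10 at -2.56 ± 0.46 (SE, adjusted p = 0.00099) and Parp14 at -1.11 ± 0.34 (SE, adjusted p = 0.036), against 6.27% of all genes. The share of members is not above that of all genes. Parp14 lost its call in 9 of the fits that left out 1 library, and without the 6 h thymus library 9 members were called. In the change from 1 to 2 h to 3 to 5 h, none was called higher in spleen by limma, against 0.253% of all genes, and 6 had an unadjusted p below 0.05, 5 of them higher in spleen. The difference in onset between the organs described above was thus not called gene by gene in the 3 to 5 h step.

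**Figure D4:**
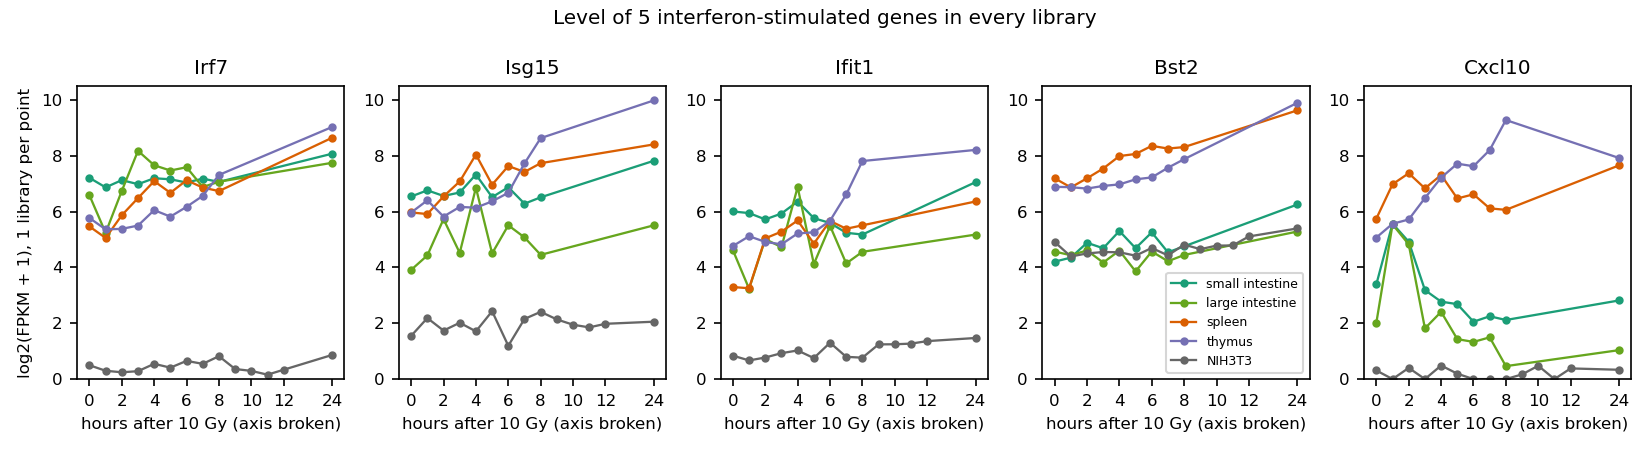
Level of Irf7, Isg15, Ifit1, Bst2 and Cxcl10 in every library (y axis, log2(FPKM + 1), 1 library per point) against hours after 10 Gy (x axis, broken before 24 h). Lines join the libraries of 1 system; in Cxcl10 the intestines peak at 1 h, when they reach 46.5 and 45.6 FPKM, and thymus peaks at 8 h with 621 FPKM.

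Among the 3 transcription factors, Irf7 had the largest change from 0 to 24 h in spleen and thymus. In thymus it stood at 53.6 FPKM at 0 h, 40.2, 40.7, 44.2, 65.4 and 55.5 FPKM from 1 to 5 h, 71.0, 93.6 and 158 FPKM from 6 to 8 h and 523 FPKM at 24 h. The 3 values from 6 to 8 h were all above those of 0 to 5 h, and the change from 1 to 5 h was 1.06 ± 0.27 (SE, adjusted p = 0.0044); without the 8 h library the adjusted p was 0.0686. From 0 to 24 h it rose by 3.26 ± 0.53 (SE, adjusted p = 2.8e-05). Spleen levels of Irf7 were 43.3, 32.3 and 57.5 FPKM from 0 to 2 h, 88.6, 135, 100.99, 139, 115 and 106 FPKM from 3 to 8 h and 400.2 FPKM at 24 h, with no overlap between these 3 spans. In small intestine Irf7 kept between 116 and 147 FPKM from 0 to 8 h and stood at 269 FPKM at 24 h. In large intestine it ranged from 36.8 FPKM at 1 h to 288 FPKM at 3 h, with 214 FPKM at 24 h, inside the range of the earlier libraries. In NIH3T3 its highest value was 0.823 FPKM, at 24 h.

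Irf9 and Stat2, subunits of ISGF3, moved less than Irf7 in these organs. In spleen Irf9 kept between 50.4 and 75.8 FPKM over all 10 libraries and was not called at 24 h. In thymus it stood between 38.1 and 49.1 FPKM from 0 to 5 h, 51.9, 68.8 and 92.1 FPKM from 6 to 8 h and 90.7 FPKM at 24 h. Stat2 went from 18.5 to 55.3 FPKM in thymus and from 19.5 to 61.5 FPKM in spleen between 0 and 24 h, and both changes were called.

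The 4 sensors in the list were Ddx58, Ifih1 (MDA5, a sensor of long double-stranded RNA), Dhx58 (LGP2, which modulates both) and Zbp1 (a sensor of Z-form nucleic acid that can trigger cell death). All 4 were called higher at 24 h in thymus, where Zbp1 went from 52.6 to 310.2 FPKM and Ifih1 from 8.96 to 44.3 FPKM. In spleen Ddx58, Ifih1 and Dhx58 were called, Dhx58 going from 15.4 to 66.4 FPKM. Zbp1 was not, although it stood at 37.7 FPKM at 0 h and 138 FPKM at 24 h. In small intestine Zbp1 varied from 20.9 to 76.4 FPKM within hours 1 to 8, so that its 24 h value of 80.1 FPKM was barely above that range.

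The OAS family makes or resembles the enzymes that produce 2-5A, the messenger that activates the nuclease RNase L. In spleen Oasl2 stood at 13.1, 9.89 and 10.6 FPKM from 0 to 2 h, 22.6, 37.8 and 28.9 FPKM from 3 to 5 h, 55.4, 52.0 and 58.0 FPKM from 6 to 8 h and 100.6 FPKM at 24 h. Each of these 4 spans lay wholly above the one before. Its thymus levels were 36.9, 35.9, 36.1, 45.7, 53.3 and 53.0 FPKM from 0 to 5 h, 63.5, 70.0 and 107 FPKM from 6 to 8 h and 313 FPKM at 24 h. Oas3 in spleen was near its 24 h level already from 6 to 8 h (24.4, 23.2 and 18.8 FPKM, with 23.4 FPKM at 24 h), having been at 3.74 FPKM at 0 h. All 5 were called higher at 24 h in both spleen and thymus.

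The IFIT proteins bind viral RNA that lacks the host's cap marks. Ifit1 in spleen stood at 8.83 and 8.54 FPKM at 0 and 1 h, at 31.9 FPKM at 2 h, between 27.9 and 50.4 FPKM from 3 to 8 h and at 81.4 FPKM at 24 h. The step between 1 and 2 h was followed by no return to the 0 h level. Thymus levels of Ifit1 were between 26.2 and 37.3 FPKM from 0 to 5 h, 50.0, 96.9 and 224 FPKM from 6 to 8 h and 295 FPKM at 24 h. Its change at 6 to 8 h, 1.63 ± 0.51 (SE, adjusted p = 0.017), was lost without the 8 h library (adjusted p = 0.176). Ifit3 in thymus went from 19.4 FPKM at 0 h through 72.2 at 7 h and 164 at 8 h to 509.5 FPKM at 24 h, a ratio of 26.2 between the last and the first library. In large intestine Ifit1 was 117 FPKM at 4 h, between 8.41 and 44.0 FPKM in the other libraries before 24 h, and 35.2 FPKM at 24 h.

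Of the antiviral effectors, Mx1 and Mx2 are dynamin-like GTPases that trap viral particles, and Rsad2 (viperin) and Cmpk2 are neighbours that make antiviral nucleotides. Mx1 in spleen had an early course: 6.03, 9.87 and 42.1 FPKM from 0 to 2 h, 49.4, 56.3, 35.8, 44.2, 44.0 and 35.7 FPKM from 3 to 8 h and 54.8 FPKM at 24 h. The 4 h value was slightly above that of 24 h. In thymus Mx1 stood at 8.62, 12.8, 17.2, 19.97, 21.7 and 20.7 FPKM from 0 to 5 h, 25.1, 41.5 and 107 FPKM from 6 to 8 h and 115 FPKM at 24 h. Rsad2 in thymus stood at 5.998, 5.19, 4.96, 4.94, 8.23 and 10.6 FPKM from 0 to 5 h, 11.7, 37.5 and 134 FPKM from 6 to 8 h and 76.2 FPKM at 24 h. It and Cmpk2, at 7.04, 14.5 and 54.4 FPKM from 6 to 8 h and 37.7 FPKM at 24 h, were higher at 8 h than at 24 h. In spleen Rsad2 had its highest value at 4 h (98.7 FPKM) and stood at 21.8 FPKM an hour later, and it was not called at 24 h. Its neighbour Cmpk2 was not called there either, with 10.1 FPKM at 0 h and 35.1 FPKM at 24 h.

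Bst2 was abundant in both lymphoid organs from the start. It stood in thymus at 117, 116, 112, 120.1, 125 and 142 FPKM from 0 to 5 h, 149, 189 and 234 FPKM from 6 to 8 h and 954 FPKM at 24 h, a change from 0 to 24 h of 3.01 ± 0.37 (SE, adjusted p = 8.1e-07). Spleen levels of Bst2 were 146, 116 and 145 FPKM from 0 to 2 h, 186, 253 and 267 FPKM from 3 to 5 h, 326, 305 and 317 FPKM from 6 to 8 h and 791 FPKM at 24 h, a change of 2.43 ± 0.37 (SE, adjusted p = 7.6e-05). Neither organ's spans overlapped, and the largest step in both came between 8 and 24 h. Large intestine and NIH3T3 had like levels of Bst2 at 24 h, 38.04 and 41.2 FPKM, each the highest of its system. Eif2ak2 (PKR, a kinase that halts translation) was called higher at 24 h in thymus and spleen, where it stood at 41.1 and 35.3 FPKM after 15.01 and 11.997 FPKM at 0 h. Rtp4 and Ifi44 were called in both as well, Ifi44 going from 9.67 to 149 FPKM in thymus and from 4.04 to 47.6 FPKM in spleen.

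Isg15 is a ubiquitin-like protein that is joined to other proteins, Usp18 removes it and damps the receptor, and Trim25 is a ligase that joins it and activates RIG-I. Isg15 reached the highest level of any member in these data, 1013 FPKM in thymus at 24 h. Before that it stood at 61.5, 83.7, 55.6, 70.9, 69.6 and 81.5 FPKM from 0 to 5 h and 101.1, 211 and 396 FPKM from 6 to 8 h there, or 72.2 ± 11.2 FPKM (SD, n = 5) over 1 to 5 h and 236 ± 149 FPKM (SD, n = 3) over 6 to 8 h. Spleen levels of Isg15 were 61.7, 59.2 and 92.3 FPKM from 0 to 2 h, 134, 263, 124, 197, 170.3 and 212 FPKM from 3 to 8 h and 339 FPKM at 24 h, again without overlap between the spans. Usp18 in spleen was at 12.02 and 7.56 FPKM at 0 and 1 h, between 23.9 and 42.1 FPKM from 2 to 8 h and at 77.6 FPKM at 24 h. At 24 h Trim25 was called in neither organ: it was at 19.6 and 30.2 FPKM in spleen at 0 and 24 h and at 27.1 and 37.7 FPKM in thymus. Its change from 1 to 5 h to 6 to 8 h in thymus was called, with 19.9, 20.2, 22.9, 29.8 and 26.3 FPKM and then 31.8, 39.6 and 50.0 FPKM, and 8 h was the highest hour. In large intestine, where its 1 to 8 h change was called, it stood at 23.5 FPKM at 0 h and 28.7, 38.7, 56.5, 69.0, 53.7, 56.2, 43.9 and 35.4 FPKM from 1 to 8 h. Trim30a, a ligase of the same large family, was called higher at 24 h in both spleen (47.4 to 126 FPKM) and thymus (31.1 to 125 FPKM).

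Parp9, Parp12 and Parp14 belong to the family of ADP-ribosyltransferases, and Dtx3l is a ligase that pairs with Parp9 and shares a bidirectional locus with it. All 4 were called higher at 24 h in thymus. In spleen Parp9 and Parp12 were called and Parp14 and Dtx3l were not. Parp12 in spleen stood at 7.87, 6.88 and 10.1 FPKM from 0 to 2 h, 16.4, 21.5, 20.6, 23.5, 20.1 and 19.2 FPKM from 3 to 8 h and 44.97 FPKM at 24 h, with no overlap. Parp14 in thymus was higher at 8 h (72.2 FPKM) than at 24 h (56.3 FPKM).

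Gbp2 and Gbp3 are guanylate-binding proteins, which attack the membranes around intracellular pathogens and also respond to interferon gamma. In thymus Gbp2 stood at 30.8, 33.6, 30.9, 43.2, 48.1 and 61.3 FPKM from 0 to 5 h, 86.6, 121 and 144 FPKM from 6 to 8 h and 285 FPKM at 24 h. Gbp3 kept between 12.2 and 34.2 FPKM from 0 to 8 h there and stood at 149 FPKM at 24 h, so most of its change came after 8 h. In small intestine neither followed: Gbp2 stood at 13.6 and 10.9 FPKM and Gbp3 at 10.2 and 10.4 FPKM at 0 and 24 h.

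Cxcl10, a chemokine that draws activated T cells and natural killer cells, had a course of its own. In small intestine it stood at 9.53, 46.5, 29.3, 8.12, 5.84, 5.43, 3.15, 3.76 and 3.34 FPKM from 0 to 8 h and 6.05 FPKM at 24 h. In large intestine it stood at 3.06, 45.6, 27.3, 2.52, 4.31, 1.70, 1.52, 1.82 and 0.379 FPKM over the same hours and 1.05 FPKM at 24 h. In both intestines the 1 h and 2 h libraries were the highest, at hours when Irf7, Isg15 and Ifit1 were within the range of later libraries or below it. The change from 1 to 5 h to 6 to 8 h was -1.69 ± 0.33 (SE, adjusted p = 0.016) in small intestine, against 0.14% of all genes called lower, and -2.11 ± 0.33 (SE, adjusted p = 0.0037) in large intestine, against 0.177%. Without the small intestine library of 1, 2, 6 or 8 h the first was not called, with adjusted p between 0.0866 and 0.127, and the second was not called without the 1 h, 2 h and 4 h large intestine libraries. It was the 1 member called in each of these comparisons.

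In spleen Cxcl10 stood at 52.8, 125, 165, 113, 158, 87.7, 97.3, 68.3 and 65.9 FPKM from 0 to 8 h and 201 FPKM at 24 h, so that hours 1 to 4 were higher than hours 5 to 8. In thymus it stood at 32.6, 46.3, 51.6, 88.6, 148, 209, 196, 294 and 621 FPKM from 0 to 8 h and 241 FPKM at 24 h, above 0 h at every hour. It was the 1 member whose change from 1 to 5 h to 6 to 8 h was called higher in thymus and whose change in both intestines was called lower. Thymus and spleen at 24 h had like levels, while the intestines were below 10 FPKM and NIH3T3 at 0.260 FPKM.

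Ifi27 did not share the course of the list. Thymus levels were 122 FPKM at 0 h, 126, 167, 176, 165, 181, 219, 225 and 133 FPKM from 1 to 8 h and 103 FPKM at 24 h. Spleen levels were 84.2 FPKM at 0 h, 65.7, 49.9, 63.1, 75.3, 85.1, 109.9, 96.3 and 104 FPKM from 1 to 8 h and 56.2 FPKM at 24 h. The 24 h value was the lowest of the thymus libraries, and in spleen only the 2 h library was lower. In NIH3T3 it reached 66.8 FPKM at 12 h and 64.7 FPKM at 24 h. The other members outside these groups, Ifi35, Xaf1 and Lgals3bp, were called higher at 24 h in thymus, and Xaf1 and Lgals3bp in spleen. Lgals3bp in spleen went from 119, 99.6 and 134 FPKM at 0 to 2 h to 829 FPKM at 24 h, the highest level of a member in that organ.

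Not all members were highest at 24 h. In thymus the 24 h library was the highest of the 10 for 29 of 38, against 31.5% of all genes. The other 9 were Irf9, Mx2, Rsad2, Cmpk2, Trim25, Parp14, Dtx3l, Ifi27 and Cxcl10, of which all but Ifi27 were highest at 8 h. In spleen it was the highest for 33 of 38, against 28.7%, the others being Irf9, Oas3, Mx1, Rsad2 and Ifi27.

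The 4 h libraries of 3 tissues shared a feature. Among hours 1 to 8, the 4 h library was the highest for 28 of 38 members in small intestine, against 14.8% of all genes, for 25 of 37 in large intestine, against 9.82%, and for 17 of 38 in spleen, against 8.47%. In thymus it was the highest for 0 of 38, against 5.66%. In large intestine 23 members stood at least 2-fold above 0 h at 4 h, against 2.62% of all genes, and Isg15 was 21.9, 115 and 21.7 FPKM at 3, 4 and 5 h. The labels do not say whether tissues of 1 hour came from the same animals.

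Marker sums of several cell types also differed between hours in both lymphoid organs. In spleen, macrophage markers (11 of 12 listed genes in the table) summed to 1993 FPKM at 0 h, 1888 to 3399 FPKM from 1 to 5 h, 3035 to 3643 FPKM from 6 to 8 h and 6705 FPKM at 24 h. Neutrophil markers (6 of 8) summed to 754 FPKM at 0 h, 574 to 1353 FPKM from 1 to 5 h, 8898 to 12978 FPKM from 6 to 8 h and 1705 FPKM at 24 h. B-cell markers (8 of 8) summed to 2416 FPKM at 0 h and 295 FPKM at 24 h. At 4 h, when the members' median change was 1.04, the macrophage sum was 2174 FPKM and the B-cell sum 1087 FPKM. Fibroblast markers (8 of 8) summed to 145 FPKM at 0 h, 141 to 156 FPKM from 6 to 8 h and 360.1 FPKM at 24 h in spleen. In thymus, macrophage markers summed to 592 FPKM at 0 h, 1016 to 1219.8 FPKM from 6 to 8 h and 2095 FPKM at 24 h, and T-cell markers (8 of 8) to 2412 FPKM at 0 h, 1042 to 1298 FPKM from 6 to 8 h and 322 FPKM at 24 h. Neutrophil markers there summed to 105 FPKM at 0 h, 535 to 1799 FPKM from 6 to 8 h and 256 FPKM at 24 h. Keratinocyte markers (6 of 8) summed to 165 FPKM in thymus at 0 h and 139.6 to 215 FPKM from 1 to 5 h. They summed to 273, 341 and 515 FPKM at 6, 7 and 8 h and 451 FPKM at 24 h. The list of thymic epithelium markers (5 of 6) also names Krt5, a keratinocyte marker here. In thymus it summed to 899 FPKM at 0 h, 1022 to 1499 FPKM from 1 to 5 h, 1186 to 1390 FPKM from 6 to 8 h and 675 FPKM at 24 h. From 1 to 5 h the macrophage sum in thymus was 569 to 967 FPKM and the neutrophil sum 135 to 305 FPKM. Like the members' median, the macrophage, neutrophil and keratinocyte sums were thus higher at each of the hours 6 to 8 than before. The thymic epithelium and T-cell sums were not. Of all genes in thymus, 19% stood higher in every library of 6 to 8 h than in every library of 1 to 5 h. Markers of plasmacytoid dendritic cells, a main source of interferon alpha (7 of 8), stood at 207 and 104 FPKM in spleen and at 160.3 and 76.8 FPKM in thymus at 0 and 24 h. The spleen sum was 1535 FPKM at 6 h, in the library with pancreas transcripts, and the same genes summed to 1864 FPKM in untreated large intestine. This sum therefore cannot be read as the number of these cells. Thymic epithelium apart, no listed gene of these types in the table was at 0 in every library of its organ. In small intestine, macrophage markers stood at 366 FPKM at 0 h and 417 FPKM at 24 h. In bulk tissue a change in the number of cells of a type and a change in the RNA of each cell cannot be told apart, and the part of these shifts in the members' changes was not tested.

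Other genes of the pathway were counted from lists of receptors, signalling genes, sensors and other targets. None of 14 listed interferon genes was in the deposited table. The small intestinal share of the 24 h thymus library was not removed from these lists. Its part in their calls was not tested. The receptor genes summed to 264 FPKM in thymus at 0 h, 202 to 310 FPKM from 1 to 5 h and 341 FPKM at 24 h. In small intestine they summed to 647 FPKM at 24 h. In spleen at 24 h, 13.2% of all genes were called higher and 7.47% lower, and in thymus 26.4% and 18.6%. Of the receptor chains, 1 of 5 tested was called higher at 24 h in spleen (Il10rb, 0.69 ± 0.18). In thymus 4 of 6 were called higher, among them Il10rb (1.83 ± 0.18), Ifnlr1 (1.47 ± 0.29) and Ifnar2 (1.27 ± 0.46), and 1 lower. The 15 signalling genes summed to 581 and 800 FPKM in thymus and to 948 and 1016 FPKM in spleen at 0 and 24 h. Among them the feedback inhibitor Socs1 was called lower in thymus (-1.73 ± 0.49). Of 18 genes for the sensing of nucleic acid, 5 were called higher and 2 lower in spleen, and 9 higher and none lower in thymus. They were led by Ifi204, a DNA sensor, at 3.24 ± 0.48 in spleen and 4.01 ± 0.48 in thymus, and included Trex1, the main cytosolic DNA exonuclease, at 1.54 ± 0.44 and 1.91 ± 0.44.

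Further interferon-stimulated genes outside the 38 moved in the same direction. At 24 h 13 of 35 tested were called higher and none lower in spleen, with a median of 0.53, against 13.2% of all genes called higher, and 26 of 36 higher and none lower in thymus, with a median of 1.51, against 26.4%. They included Ifitm3, which blocks viral entry, at 2.63 ± 0.41 and 3.73 ± 0.41, and Phf11d at 2.66 ± 0.49 and 4.13 ± 0.49. Genes known mainly as targets of interferon gamma gave 7 higher and 1 lower of 23 in spleen and 14 higher and 1 lower of 24 in thymus, against the same shares of all genes. Iigp1, an immunity-related GTPase, stood at 2.38 ± 0.59 and 3.29 ± 0.59. Ciita, the master regulator of MHC class II and a B-cell gene, was the 1 called lower in spleen (-2.08 ± 0.36). From 6 to 8 h in thymus, 22 of 36 of the further interferon-stimulated genes and 12 of 24 of the interferon-gamma targets were already called higher and none lower, against 18.6% of all genes called higher. In both intestines at 24 h limma called none of any of these lists. At an unadjusted p below 0.05 stood 8 of 35 further interferon-stimulated genes in small intestine and 9 of 33 in large intestine, 0 of 23 and 2 of 16 of the interferon-gamma targets, 1 of 15 signalling genes in each, and no receptor or sensing gene.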

How the data were processed

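Gene expression was measured by RNA sequencing of 54 libraries. The deposited table holds FPKM (fragments relative to transcript length and to the mapped fragments of the library) that the authors made with TopHat2 2.1.0 and Cufflinks 2.1.1 on mm10, per the submitters' processing notes. The sources used here do not give how its 13611 genes were chosen or whether FPKM was scaled between libraries. Each FPKM is relative to its own library. Without fragment totals, depth is known only roughly: the deepest library of a system had 1.87 to 3.19 times the depth of the shallowest.

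Values were analysed as log2(FPKM + 1), with a pseudocount of 1, in genes with a mean of at least 1 FPKM in a system. Models were fitted over all such genes with limma 3.58.1 in R 4.3.3, 1 for the 40 tissue libraries (20 residual degrees of freedom) and 1 for the 14 NIH3T3 libraries (8), with each system and time window as a group. P-values were adjusted over all genes by Benjamini-Hochberg, and 0.05 was the threshold. The 0 h and 24 h groups of 1 library borrow their spread from the windows of 1 to 2 h, 3 to 5 h and 6 to 8 h, and 9 to 12 h in NIH3T3. Whether each library came from its own animal or culture is not in the labels. A window holds libraries of different hours, with 1 library per hour. The spread behind the p-values therefore mixes change between the hours of a window with differences between libraries, which may be technical. It does not measure the spread between animals at 1 hour. The fit was tested on simulated data. Descriptions used Python 3.11.15, pandas 2.3.3, numpy 2.4.6 and matplotlib 3.10.9.

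Members and lists were chosen with earlier results of these data known. Fold changes are named for the 6 highest and 3 lowest called members of a comparison and for Irf7, Isg15, Ifit1, Bst2 and Cxcl10; pathway lists are given as counts with up to 4 of the called genes with the largest changes. Alternatives were another pseudocount, no filter, quantile normalization, a fit per tissue, a slope over hours, a block for the hour, and leaving out each irradiated library of 1 to 12 h in turn. Those marked as added were chosen after seeing the data. Results for 1 gene of the pathway lists are not reported here.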

Additional observations from a re-analysis of the deposited data

Results flagged for a closer look

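Results stand here because the change in spleen and thymus differed from that in the intestines, or spleen from thymus, by a test of the difference itself in limma, or because 1 library stood far from the others of its group. From 1 to 5 h to 6 to 8 h, 27 of 37 members were called different between the lymphoid organs and the intestines, each higher in the mean change of spleen and thymus. Of all genes, 16.6% were called higher and 12.8% lower in this comparison. On the log2 scale the differences were 0.79 for Irf7, 1.30 for Isg15, 1.501 for Ifit1, 0.62 for Bst2 and 2.45 for Cxcl10. Irf7 lost its call in 9 of the 32 fits that left out 1 library, Isg15 in 5 and Ifit1 in 3, with adjusted p of up to 0.0762, 0.0761 and 0.0733.

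From 0 h to 24 h, 20 of 37 members were called different between lymphoid organs and intestines, where 16.1% of all genes were called higher and 11.2% lower. The differences were 2.21 for Irf7, 1.34 for Bst2 and 3.16 for Cxcl10. Between spleen and thymus, 2 of 38 members differed in the change from 1 to 5 h to 6 to 8 h, Cxcl10 by -2.56 and Parp14 by -1.11, both less increased in spleen. Of all genes, 6.27% were called lower and 4.99% higher in spleen, so that this count is not above the background. Parp14 lost its call in 9 of 32 fits, up to an adjusted p of 0.163.

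Of 19 members checked in the 4 NIH3T3 libraries of 9 to 12 h, Ddx58 had 1 library apart from the rest. It stood at 3.79, 3.94, 3.86 and 3.05 FPKM, so that the gap below the other libraries was 0.838 of the range. Chance sets about 1 in 20 groups apart in this way, and the library's part in other results was not tested.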

How the results depend on the processing

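Direction was checked for 106 results of named members under the settings run, the slope over hours apart, and none changed direction. Of 711 values of single members under other settings, 666 kept their side of the threshold, 39 lost it and 6 gained it. Of 183 counts of members under other settings, onset counts among them, 134 stayed within 1.5 times and 49 did not. Leaving out 1 library moved 50 of 320 counts that far. Under the other settings, leave-outs apart, the larger counts stayed within 1.5 times. In spleen at 24 h 28 called members became 21 to 32, in thymus at 24 h 36 became 35 to 37 and at 6 to 8 h 34 became 32 to 35. For lymphoid organs minus intestines, 27 at 6 to 8 h and 20 at 24 h became 22 to 30 and 16 to 27. Without the 8 h thymus library, however, the 34 in thymus at 6 to 8 h fell to 12. The causes of the shifts below were not tested.

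The following counts moved by over 1.5 times. With quantile normalization, counts of 1 became 0 (small intestine, 6 to 8 h) and 2 (thymus, 1 to 8 h), 0 became 1 (lymphoid organs minus intestines at 1 to 8 h, and spleen minus thymus at 3 to 5 h), 2 became 6 (spleen minus thymus, 6 to 8 h), and in NIH3T3 3 became 1 (24 h) and 5 became 3 (9 to 12 h). With each tissue fitted alone, 1 became 0 (small intestine at 24 h, large intestine at 6 to 8 h, thymus at 3 to 5 h), 2 became 0 (large intestine, 1 to 8 h) and 5 (spleen, 1 to 8 h), 9 became 14 (spleen, 6 to 8 h) and 1 became 2 (thymus, 1 to 8 h). A slope over hours gave 17 in place of 9 in spleen. A pseudocount of 0.1 gave 1 in place of 0 (large intestine, 24 h) and 0 in place of 1 (thymus, 3 to 5 h). Without the low-value filter the NIH3T3 counts were 1 (1 to 8 h), 0 (6 to 8 h) and 3 (9 to 12 h). Leaving out both libraries with transcripts of another organ (large intestine at 2 h, spleen at 6 h), counts were 1 (large intestine, 24 h), 3 (thymus, 1 to 8 h), 1 (lymphoid organs minus intestines, 1 to 8 h) and 4 (spleen minus thymus, 6 to 8 h).

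Alternatives added after seeing the data were these. Without the 1 h, 2 h and 4 h large intestine libraries, counts were 4, 0 and 2 in large intestine (1 to 8 h, 6 to 8 h, 24 h), 7 and 11 in spleen (1 to 8 h, 3 to 5 h), 4 and 2 in thymus (same hours), 2 for lymphoid organs minus intestines at 1 to 8 h and 5 for spleen minus thymus at 6 to 8 h. With 0 to 2 h as the reference for 24 h, they were 2 in small intestine, 1 in large intestine and 7 in NIH3T3.

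For the onset hour, 0 to 2 h as the reference gave 0 members in small and 2 in large intestine by 8 h, and 0 at 24 h alone in thymus. With the small intestine share taken from the 2 h large intestine library, added after seeing the data, the counts there stayed 10 by 8 h and 4 at 24 h alone. A 1.5-fold criterion gave 20 in large intestine by 8 h, 2 in NIH3T3 by 12 h, and at 24 h alone 0 in thymus, 6 in spleen, 20 in small intestine, 7 in large intestine and 3 in NIH3T3. A pseudocount of 0.1 gave 1 in NIH3T3 at 24 h alone.

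Leaving out 1 library of 1 to 12 h at a time, the counts called ranged, for 1 to 8 h, 6 to 8 h and 24 h in turn, over 2 to 7, 5 to 10 and 27 to 28 in spleen, 1 to 2, 12 to 36 and 35 to 36 in thymus, 0 to 0, 0 to 1 and 1 to 1 in small intestine, 1 to 3, 1 to 1 and 0 to 1 in large intestine, 0 to 1, 19 to 31 and 18 to 24 for lymphoid organs minus intestines, and 0 to 1, 0 to 1 and 3 to 3 in NIH3T3, with 1 to 5 there at 9 to 12 h. At 3 to 5 h they ranged over 0 to 10 in spleen, 0 to 1 in thymus and 0 to 1 for spleen minus thymus, and over 1 to 9 for that difference at 6 to 8 h. The 0 h and 24 h libraries could not be left out. With a replicate block for the hour within a window, counts became 1 in large intestine at 24 h (from 0) and 4 in spleen at 1 to 8 h (from 2). Whether tissues of 1 hour share animals is not in the labels, and they were not treated as pairs: over 9980 genes, deviations of the 48 same-hour pairs of tissues correlated at -0.127 to 0.324, with a median of 0.0408, and 5 passed 0.1. With the block Cxcl10 in spleen at 24 h and Mx2 in thymus at 6 to 8 h lost their calls.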

Other observations

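Ifitm3 stood at 332 and 2053 FPKM in spleen and at 233 and 3100.3 FPKM in thymus at 0 and 24 h, and its 24 h level was above that of every one of the 38 members in both organs.

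In the 14 NIH3T3 libraries Rsad2 was listed at 0 FPKM in 12, with 0.0402 FPKM as its highest value, although Ifit2 stood at 19.1 FPKM at 0 h and 18.1 FPKM at 24 h. In thymus from 6 to 8 h, the genes of interferon signalling called higher included Socs3, a feedback inhibitor of cytokine signalling, at 2.34 ± 0.64, Irf5 at 1.09 ± 0.26, Stat3 at 0.98 ± 0.20 and Jak2 at 0.68 ± 0.21, and 7 of 15 were called higher and 1 lower, against 18.6% and 13.4% of all genes. Among the sensing genes there, 8 of 18 were called higher and 1 lower, with Tmem173 (STING, the adaptor of cytosolic DNA sensing) at 1.22 ± 0.24 and Trex1 at 0.96 ± 0.23. In spleen over the same hours 3 signalling genes were called higher and 2 lower of 15, and 3 sensing genes higher and 3 lower of 18, against 15.4% higher and 12.2% lower of all genes, so that these counts are near the background.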
